A study of Mus musculus with 8 samples.

Results

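Mural cells, the pericytes and smooth muscle cells that wrap blood vessels, made up 206 of the 23996 barcodes that passed the limits on quality in a sort meant for endothelial cells. A barcode passed with at least 500 UMIs (unique molecular identifiers, each 1 captured RNA molecule), at least 300 genes and at most 10% mitochondrial UMIs. It counted as a mural cell when at least 3 of 8 genes (Rgs5, Abcc9, Kcnj8, Pdgfrb, Notch3, Higd1b, Cox4i2 and Ndufa4l2) had a UMI while Cdh5, Prox1 and Ptprc had none. The cells were chosen by their UMI counts of these genes. The 8 genes, and the levels of these cells against other barcodes, are therefore described below without a test. Only the changes by diet or tissue were also compared with those in Cdh5-positive barcodes by a test, which was added to the plan. Single-cell RNA sequencing (10x Genomics, 3' ends) was done on male ROSA26-eYFP+/+ Cdh5-CreERT2+ mice, all fed tamoxifen from 6 weeks of age for 2 weeks, which turns on a YFP reporter in cells that use the endothelial Cdh5 promoter. From 8 weeks of age the mice were kept for 12 to 13 weeks on normal chow, with 5.8% fat, or on high fat diet, with 60%, and sorted cells of the mesentery or the epididymal adipose tissue of 6 mice were pooled into each library. The 4 groups, each tissue on each diet, have 2 libraries each, from an experiment done as run A and again as run B. The labels call the cells endothelial, and the Cre driver is not meant to mark mural cells. No source used here gives the gate of the sort.

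Pericytes sit in the basement membrane of capillaries, and smooth muscle cells form the contractile coat of arteries, arterioles and veins. Endothelial PDGF-B recruits both through the receptor PDGFRB, and NOTCH3 on their surface receives Jagged signals from the endothelium. RGS5 damps G protein signalling, KCNJ8 and ABCC9 form the vascular ATP-sensitive potassium channel, and calcium-driven actin and myosin shorten the contractile forms and set vessel width. COX4I2, NDUFA4L2 and HIGD1B are mitochondrial proteins that respond to or act in oxygen-dependent respiration.

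Run B held 199 of the 206 cells and run A held 7, with 2 and 3 cells in the chow libraries of mesentery and adipose and 0 and 2 in those on high fat diet. In run B the counts were 44 in mesentery on chow, 66 in adipose on chow, 41 in mesentery on high fat diet and 48 in adipose on high fat diet. Library totals ran from 3461360 to 6714473 UMIs for run A, while those of run B reached 18829960 to 36779289. Between libraries 97 barcodes were shared, and 1 mural barcode also occurred in another library, where it was no mural cell. A further 42 barcodes met the rule but held more than 10% mitochondrial UMIs. Scrublet's own threshold called only 48 doublets (0.2% of barcodes), which is too few to have worked. Of the 858 barcodes with the highest Scrublet scores, as many as the loading leads one to expect, 3 were mural cells.

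Most barcodes that carried the mural genes also carried endothelial RNA. In run B, 1184 barcodes had at least 3 of the 8 genes, and 985 of these held a UMI of Cdh5, Prox1 or Ptprc, 984 of them of Cdh5. The median was 8445 UMIs in those 985 barcodes, 2608 in the mural cells and 4612 in all Cdh5-positive barcodes. Among the 985, Pecam1 was seen in 93.0% and Cspg4 in 17.7%, against 20.1% and 32.2% of the 199 mural cells. What these 985 barcodes are was not tested.

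A few of the 206 barcodes stood apart. The largest, in adipose on chow of run B, held 132434 UMIs, against 21695 in the next, and made up 38.2% of the mural UMIs of its library. Its leading genes were Crisp1 (3827 UMIs), Npy (519) and Spink10 (367), and it had 0 Rgs5 UMIs, passing the rule through Higd1b (14), Notch3 (6), Kcnj8 (1) and Cox4i2 (1). Levels are given in CPM, the UMIs of a gene per 1000000 UMIs of the summed cells. The levels below leave this Crisp1 barcode out, so they rest on 65 cells in adipose on chow, while counts of cells and the tests keep it unless stated. Another 6 barcodes had at least 5 UMIs of Dcn, the fibroblast proteoglycan decorin. They were 2 in mesentery on chow, 1 in mesentery on high fat diet and 3 in adipose on high fat diet, and 5 of the 6 had between 0 and 2 Rgs5 UMIs. In adipose on high fat diet, 1 barcode held 1275 of all 1276 Hbb-bs UMIs, a haemoglobin transcript.

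By the rule itself the 8 genes had to be high, so their values only describe the cells and do not check the label. Rgs5 had a UMI in 92.7% of the 206 cells, and its level in the run B mural cells was 4435 ± 1129 CPM (SD, n = 4 libraries) against 342 ± 127 in Cdh5-positive barcodes. The PDGF receptor gene Pdgfrb was at 935 ± 180 in mural cells and 30.7 ± 12.5 in Cdh5-positive barcodes. Notch3 was at 586 ± 126 against 20.1 ± 8.77. For all 8 rule genes the log2 ratio lay between 3.69 and 4.88. Of 30 mural genes that the rule did not use, 28 had a log2 ratio above 1, among them Gucy1a1, a subunit of the nitric oxide receptor (3.77), the matricellular gene Postn (4.11) and the metalloreductase gene Steap4 (4.2). At least 3 genes of that list were present in 166 of the 206 cells. Over the 5321 genes with a UMI in at least 10% of the cells, 13.0% had a log2 ratio above 1.

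The genes outside the rule with the largest ratios were parts of the contractile machine. Among genes present in at least 25% of the cells, the 20 highest began with Tpm2, a tropomyosin (log2 ratio 5.55), Myh11, the smooth muscle myosin heavy chain (5.52), Acta2, smooth muscle actin (5.48), Lmod1, which nucleates actin filaments (5.32), and Myl9, the regulatory myosin light chain (4.99). The vasoconstrictor receptors Ednra for endothelin (4.77) and Agtr1a for angiotensin II (4.61) followed, as did the pericyte proteoglycan Cspg4 or NG2 (4.49), the intermediate filament gene Des (4.48), the Notch target Heyl (4.51) and Vtn, vitronectin (4.56). Collagen genes Col3a1 (4.92), Col6a1 (4.5) and Col6a2 (4.48), the proteoglycan Aspn (4.87) and the chemokine gene Ccl11 (4.63) were in the same 20. The rest were Tagln, Olfr558, Adap2os and S1pr3.

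**Figure D1:**
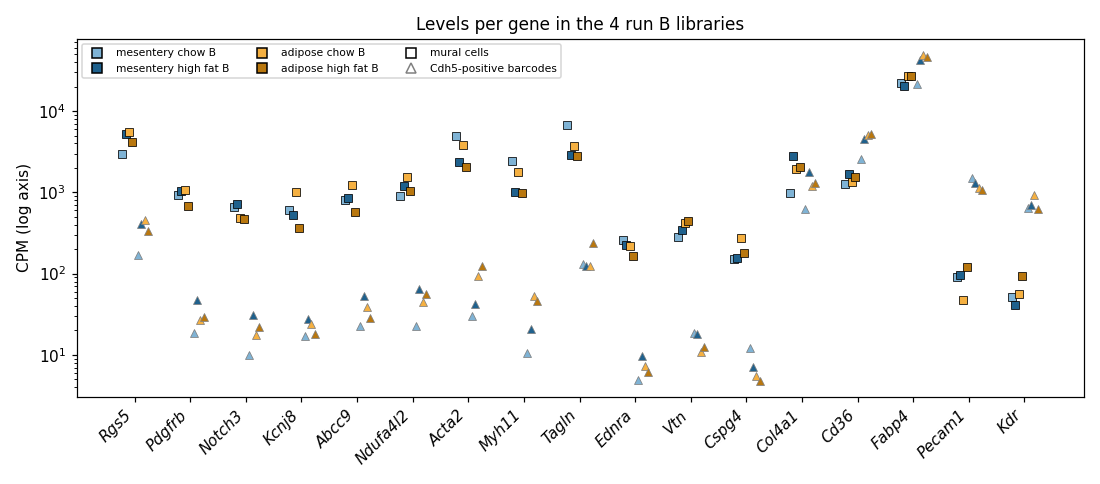
Levels of 17 genes in CPM (log axis) in the 4 run B libraries, coloured by library: squares are the summed mural cells without the Crisp1 barcode, triangles the summed Cdh5-positive barcodes. Squares lie above triangles for the mural and contractile genes (Rgs5 to Cspg4), close to them for Col4a1, and below them for Cd36, Pecam1 and Kdr.

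Markers of other cell types were partly present. At least 3 of 16 endothelial genes had a UMI in 104 of the 206 cells, with a summed level of 1170 to 1643 CPM in the mural cells of the 4 libraries against 10970 to 13020 in Cdh5-positive barcodes. At least 3 of 15 fibroblast genes, a list that includes 3 collagen genes mural cells also express, were present in 86 cells, with summed levels of 2746 to 13020. At least 3 of 8 adipocyte genes were present in 42 cells, all but 1 of them on chow. The summed adipocyte level was 6328 in mesentery and 4445 in adipose on chow, while the libraries on high fat diet had 90.7 and 88.8. Macrophage genes reached at most 75.5 in sum and lymphatic genes at most 48.9, with 1 and 0 cells marked. No cell had 3 genes of the lymphocyte, mesothelial or Schwann lists, of which 6 of 8, 5 of 7 and 4 of 7 genes were at 0. Among the rest, Trac, a T cell receptor gene, was in 4.85% of the cells (log2 ratio 2.72), Ighm, an antibody heavy chain, in 5.34% (-0.5), Wt1 of the mesothelial list in 0.485% (1.97) and the sodium channel gene Scn7a of the Schwann list in 13.6% (2.69). Fabp4, a fatty acid carrier made by capillary endothelium and adipocytes, was in 99.5% of the cells, at 24190 ± 3572 against 39860 ± 12430 in Cdh5-positive barcodes. The class I antigen presentation genes H2-K1, H2-D1 and B2m had log2 ratios of -2.63, -1.98 and -1.74 against Cdh5-positive barcodes.

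The cells with more rule genes also had more UMIs. In run B, 63 cells had exactly 3 of the 8 genes and a median of 1128 UMIs, 25 had 4 (1849 UMIs) and 111 had 5 to 8 (5062 UMIs). Just outside the rule, 100 barcodes without Cdh5, Prox1 or Ptprc had 2 of the genes (1573 UMIs). Cspg4, which the rule did not use, was in 4.76% of cells with 3 rule genes, 12% with 4 and 52.3% with 5 to 8, and in 0 of the 100 outside. Vtn was in 14.3%, 24% and 73.0% of the same 3 classes and in 6% outside. In Cdh5-positive barcodes, Cspg4 was in 2.07% and Vtn in 3.21%.

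The share of mural cells differed mostly between the runs. In run B it was 0.857% in mesentery on chow (exact 95% binomial interval 0.623 to 1.15), 1.17% in adipose on chow (0.903 to 1.48), 1.37% in mesentery on high fat diet (0.985 to 1.85) and 1.09% in adipose on high fat diet (0.804 to 1.44). In run A it was 0.128%, 0.156%, 0% and 0.151% in the same order, where the count of 0 has an exact upper bound of 0.371% (0.302% by a limit of 3 counts). The intervals cover counting error only. The 4 run B shares thus lay above all run A shares, and by diet or tissue the libraries overlapped.

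When each barcode was thinned to 1000 UMIs, with shallower barcodes left out, run B still held 0.941%, 1.3%, 2.2% and 1.63% and run A 0%, 0.0699%, 0% and 0.233%. Over all 8 libraries the share was 0.653% ± 0.679 on high fat diet and 0.577% ± 0.518 on chow (SD, n = 4 each), a difference of 0.0757 percentage points with p = 0.8 in an exact two-sided permutation test over 70 regroupings. Mesentery and adipose differed by -0.0518 points (exact permutation p = 0.857). Most of this spread lay between the runs, which pair the libraries. Within run and tissue, high fat minus chow was -0.128 and -0.00527 points in mesentery and adipose of run A and 0.513 and -0.0776 in run B. After thinning these differences were 0, 0.164, 1.25 and 0.324, so 3 of 4 pairs were higher on high fat diet and 0 lower. In mesentery of run B the exact intervals of the thinned shares, 0.681 to 1.26 on chow and 1.68 to 2.81 on high fat diet, did not overlap. The rule was applied anew to thinned counts, so a barcode that lost its Cdh5 UMIs by thinning could count as a mural cell. Run B held 236 mural cells after thinning and 199 before. Mesentery of run B held 61 after and 41 before on high fat diet, and 43 and 44 on chow. Barcodes with at least 3 rule genes and Cdh5, Prox1 or Ptprc were 7.12% and 2.1% of these libraries. How far they entered the thinned shares was not tested. With labels exchanged within pairs the exact permutation p by diet was 1 for all UMIs and 0.25 for thinned shares, where 16 exchanges allow no p below 0.125. Neither test passed, and 4 pairs could not have done so. Run and software version (3.0.2 in run A and 5.0.0 in run B, per the file headers) cannot be told apart.

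**Figure D2:**
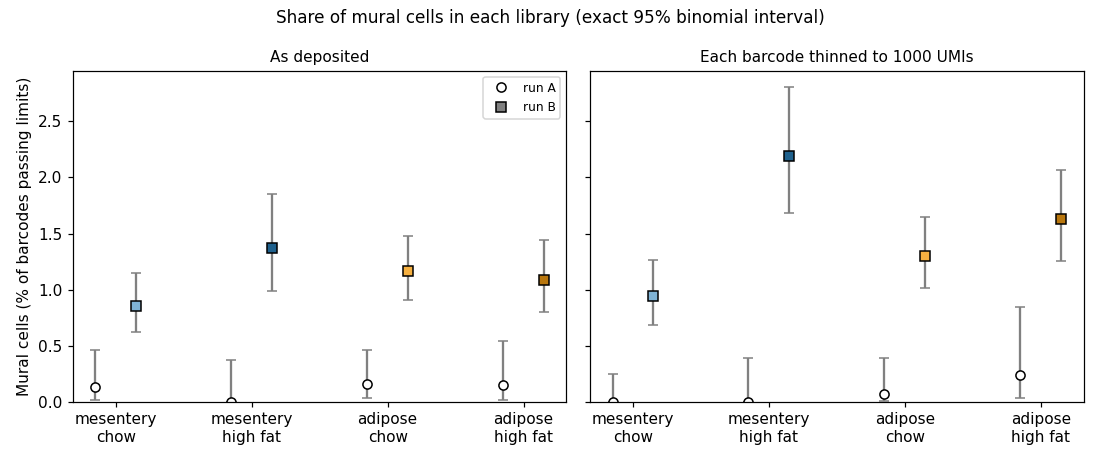
Share of mural cells among barcodes passing the limits, in percent, for each group; circles are run A, squares run B, bars exact 95% binomial intervals. The left panel uses all UMIs and the right panel barcodes thinned to 1000 UMIs; run B lies above run A in every group of both panels.

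Contractile transcripts split the mural cells. Acta2 had 0 UMIs in 141 cells, 1 to 9 in 31 and at least 10 in 34, with a highest count of 541 and 18 cells between 5 and 14, so the ranges are cuts in a spread and no cell types. Without the Crisp1 and Dcn barcodes, the cells at 10 or more numbered 8, 8, 8 and 7 in the 4 run B libraries. These cells were deeper, with a median of 7113 UMIs against 2124 at 0. Acta2 had a UMI in 5.75 to 7.87% of the Cdh5-positive barcodes of each library and in 27.3 to 34.1% of the mural cells.

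The potassium channel genes had the opposite order. Kcnj8, the pore subunit, was at 1068 CPM in the 134 run B cells with no Acta2 and at 59.0 in the 31 with at least 10 Acta2 UMIs. Its partner Abcc9, the regulatory subunit, was at 1394 and 197. In each of the 4 libraries both genes were higher in the cells without Acta2. For Kcnj8 these levels were 1158, 1406, 948 and 694 in cells without Acta2 and 0, 141, 36.4 and 81.6 in the others, in the order mesentery chow, adipose chow, mesentery high fat and adipose high fat. Of the 34 cells with at least 10 Acta2 UMIs, 16 had no UMI of either gene, and 4 had no Rgs5.

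Rgs5 summed over the libraries was at 4612 without Acta2 and 5061 with at least 10 UMIs, but the libraries did not share a direction. In mesentery chow, adipose chow, mesentery high fat and adipose high fat it was at 3063, 5631, 3803 and 5230 without Acta2. With at least 10 UMIs it was at 3180, 3957, 7720 and 4243. Ndufa4l2 likewise was at 1267 and 1191 in sum, with 909 and 1588 in mesentery high fat and the reverse order in the other libraries. Notch3 was at 483 and 834, Myh11 at 239 and 4172, Tagln at 148 and 10580, Des at 183 and 948 and Lmod1 at 65.6 and 806, all higher with Acta2. Some matrix and pericyte genes ran the other way, with Postn at 1379 and 334, Col4a1 at 2412 and 1089 and Steap4 at 958 and 291. Other mural genes did not, with Mcam at 150 and 366 and Rgs4 at 396 and 610, both higher with Acta2 in each library. Ednra was at 206 and 271, but at 221 and 182 in adipose chow. Cspg4, at 190 and 201, and Vtn, at 398 and 330, were close to level in sum, but each turned direction between libraries. These ranges are a description, since Acta2 set them. Kcnj8, Abcc9, Rgs5, Ndufa4l2 and Notch3 are moreover rule genes. A cell without Kcnj8 and Abcc9 counted as mural only through other rule genes, so the rule ties the levels of these genes together. How far the rule shaped their order across the Acta2 ranges was not tested. Kcnj8 and Abcc9 are neighbours on chromosome 6 of the mouse genome (GRCm38), both on the minus strand, at chr6:142564837-142571614 and chr6:142587862-142702315, with 16247 bases between them. Both channel genes were in 78 of the 206 cells and at least 1 of them in 143.

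**Figure D3:**
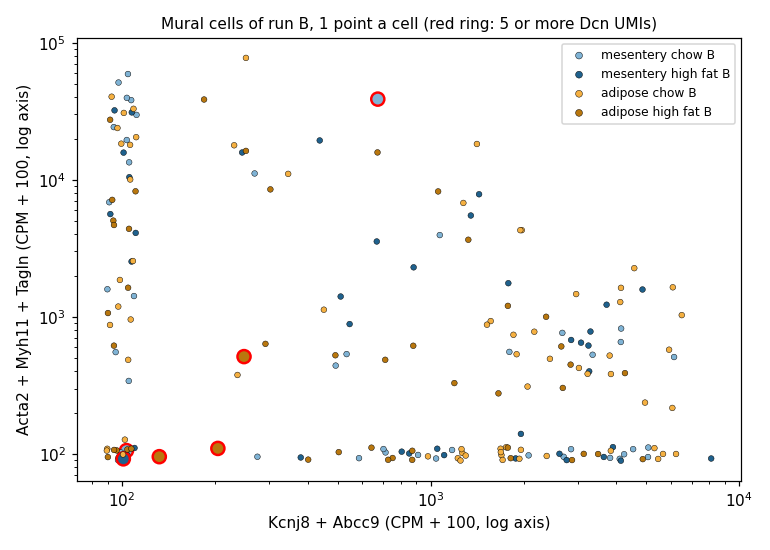
Each point is 1 mural cell of run B, placed by its summed Kcnj8 and Abcc9 level (x, CPM plus 100, log axis) and its summed Acta2, Myh11 and Tagln level (y, same scale), with a small random shift to separate points; colour gives the library and red rings the 6 cells with at least 5 Dcn UMIs. Cells lie along both axes, and in each library cells high in contractile genes are mostly low in the channel genes.

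Contractile genes are known targets of serum response factor, which binds the CArG box. In the RefSeq promoters (GRCm38.p6, 250 bases before to 50 after the gene start, both strands), an exact CArG box was present in 2 of 17 contractile genes with a promoter there, Myl9 and Rergl, and in 1.62% of all 27025 genes. With up to 1 mismatch it was present in 3 of 17, now with Acta2, and in 9.78% of all genes. The stretches that hold the boxes of Myl9, chr2:156775288-156775389 (plus strand), and Acta2, chr19:34255383-34255472 (minus strand), are shown. These genes were picked because they have a box and stand high in the list of leading genes above (ranks 5 and 3). Tpm2 (rank 1) and Lmod1 (rank 4) have no box in the window, even with 1 mismatch. Capitals mark the boxes, which start at -161 (exact) and -99 (1 mismatch) from the gene start in Myl9 and at -84 and -34 in Acta2 (1 mismatch each).
Myl9: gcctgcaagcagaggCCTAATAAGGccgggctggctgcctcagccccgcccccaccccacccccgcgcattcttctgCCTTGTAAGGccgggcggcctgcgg
Acta2: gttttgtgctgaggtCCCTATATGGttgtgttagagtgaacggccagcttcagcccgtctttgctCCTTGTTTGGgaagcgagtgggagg
A match is a description of the letters, and no match says only that they are not in this window.

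Diet was compared with edgeR's quasi-likelihood test on counts summed over the mural cells of each run B library, with tissue and diet as terms (4054 genes, 4 libraries). Of these genes 110 (2.71%) were called (Benjamini-Hochberg adjusted p below 0.05), 52 higher (1.28%) and 58 lower (1.43%) on high fat diet. The fit leaves 1 residual degree of freedom, so the calls lean on the spread shared across genes. Each tissue on each diet has 1 library here, a pool of mice, so the spread between pools within a group could not be measured. The p-values rest on the departure of the 4 libraries from additive effects of tissue and diet, and on that shared spread. Without 1 library the count of calls was 388 (mesentery chow), 94 (adipose chow), 3 (mesentery high fat) or 0 (adipose high fat). It was 32 without the Crisp1 barcode, 5 without the Dcn barcodes and 59 without both. The weight of the shared spread, in prior degrees of freedom, was 26.3 in the main fit. In those fits it was 9.93, 4.84 and infinite in the same order, where infinite means that only the shared spread counts. It was 4.44 with at least 4 rule genes and infinite with at least 5. Adjusted p-values of these fits are therefore not on the same footing.

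The chemokine gene Ccl11, whose product eotaxin attracts eosinophils, rose on high fat diet. It was at 546 and 122 CPM in mesentery and adipose on chow against 1166 and 995 on high fat diet, with both high fat libraries above both chow libraries. The diets were split without overlap in 51 of the 52 genes called higher and 49 of the 58 called lower. The share of all genes split in this way was not counted, here or for the genes below. The log2 change of Ccl11 was 2.18 ± 0.38 (SE, adjusted p = 0.000545). It was spread over cells, with a UMI in 23 of 44 and 12 of 66 cells on chow and in 28 of 41 and 28 of 48 on high fat diet, and no cell held over 25% of its UMIs in a library. In Cdh5-positive barcodes Ccl11 was at 16.3 and 6.26 on chow against 60.2 and 27.3 on high fat diet, in 2.23 to 8.99% of the barcodes. The log2 change in mural cells minus that in Cdh5-positive barcodes was 0.19, which the test of the difference did not call (adjusted p = 1). The fit behind this and each such difference below had 1 residual degree of freedom and infinite prior degrees of freedom. A difference that is not called there does not show that the changes were alike. Among cells with 5 to 8 rule genes Ccl11 was at 737 and 111 on chow against 1086 and 1192 on high fat diet (adjusted p = 1.46e-07). It was called in 7 of 16 alternatives, in which the log2 change lay between 0.95 and 3.65 and the adjusted p between 4.62e-14 and 1. Of the alternatives here and below, a limit of at least 5 mural cells per library keeps the same 4 libraries and repeats the main fit. Left out alone, the Crisp1 barcode ended the call (adjusted p = 0.0918), as did the Dcn barcodes (0.29). Leaving out both kept it (log2 change 2.14, adjusted p = 1.24e-08). That fit and the 1 on 5 to 8 rule genes had infinite prior degrees of freedom. With at least 4 rule genes Ccl11 was not called.

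A further 3 genes that rose passed in some narrower sets of cells and not in others. Tmsb10, thymosin beta 10, which binds actin monomers, was at 660 and 868 on chow against 1951 and 2159 on high fat diet (log2 change 1.68 ± 0.26, adjusted p = 9.97e-05). Rbp7, a retinol-binding protein of adipose endothelium, was at 131 and 202 on chow against 404 and 622 on high fat diet (1.89 ± 0.31, adjusted p = 0.000294), though in Cdh5-positive barcodes it was higher, at 294 to 1216. Angptl4, an inhibitor of lipoprotein lipase, was at 56.9 and 146 on chow against 349 and 262 on high fat diet (1.89 ± 0.38, adjusted p = 0.00277). In Tmsb10 and Angptl4 both high fat libraries lay above both chow libraries, and no cell held over 30% of the UMIs of either gene in a library. Rbp7 overlapped once single cells were left out. In mesentery on high fat diet 1 cell held 55 of its 89 UMIs (61.8%), and without that cell the library was at 164, below adipose on chow. Each of the 3 passed in cells with 5 to 8 rule genes and with the Crisp1 and Dcn barcodes left out, and Tmsb10 and Angptl4 did not with the Crisp1 barcode alone left out (adjusted p = 0.0578 and 0.149). With the Dcn barcodes alone left out none of the 3 passed (Tmsb10 0.104, Rbp7 0.143 and Angptl4 0.265). With at least 4 rule genes 0 of the 52 genes higher on high fat diet were called. The fits with 5 to 8 rule genes and without the Crisp1 and Dcn barcodes had infinite prior degrees of freedom. Those with at least 4 rule genes and without the Dcn barcodes had 4.44 and 4.84.

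Collagen genes also rose, with much of their RNA in a few cells. Col1a1, a chain of type I collagen, was at 96.7 and 221 on chow against 526 and 1008 on high fat diet (log2 change 2.58 ± 0.3, adjusted p = 1.78e-06). Col3a1 was at 705 and 887 on chow against 2114 and 3167 on high fat diet (1.96 ± 0.27, adjusted p = 2.56e-05). A single cell held 49.1% and 53.7% of the Col1a1 UMIs in the mesentery and adipose libraries on high fat diet. With the Crisp1 and Dcn barcodes left out Col1a1 was at 57.1, 221, 286 and 255 in mesentery chow, adipose chow, mesentery high fat and adipose high fat (log2 change 1.03, adjusted p = 0.133). Among cells with 5 to 8 rule genes it was at 140 and 270 on chow against 292 and 277 on high fat diet (0.52, adjusted p = 0.759). Col1a1 was called in 8 of 16 alternatives.

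The other genes with the smallest p were Col1a2, Fbln2, Aldh1a2, Igfbp6, Svep1 and Col14a1, with log2 changes of 1.95 to 5.66. Without the Crisp1 and Dcn barcodes Fbln2 was at 0.18 (adjusted p = 0.997) and Col1a2 at 0.77 (0.296), and the other 4 had too few counts to be tested. Of 15 fibroblast genes 11 were tested and 10 rose, while 0 of the 4 still tested were called without those barcodes. Of 31 tested basement membrane and matrix genes 7 rose and 0 fell (Col4a1, Col6a1, Col6a2, Nid1, Sparc, Bgn and Fbln5), with a median log2 change of 0.73 against 0.001 over all genes. Only Fbln5, an elastic fibre protein, was called without those barcodes (2, adjusted p = 0.00556). Col4a1, the main chain of basement membrane collagen IV, was at 984 and 1943 on chow against 2785 and 2061 on high fat diet (1.03, adjusted p = 0.0241). The fit without those barcodes gave it 0.69 and an adjusted p of 0.552.

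Transcripts of adipocytes fell on high fat diet. Cfd, the serum protease adipsin, was at 2484 and 1558 CPM in mesentery and adipose on chow against 9.07 and 4.44 on high fat diet, and fell by 7.96 ± 0.43 on the log2 scale (adjusted p = 2.46e-13). Car3, a carbonic anhydrase, was at 2655 and 1976 on chow against 36.3 and 13.3 on high fat diet. Adipoq, the hormone adiponectin, was at 318 and 150 on chow against 9.07 and 0 on high fat diet. The groups did not overlap in these 3 genes, and 6 of 7 tested adipocyte genes fell.

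Cdh5-positive barcodes also held these transcripts. In them Cfd was at 1538 and 1922 on chow against 10.3 and 5.05 on high fat diet, and Adipoq at 200 and 302 on chow against 15 and 3.72 on high fat diet. For Cfd the mural change minus that in Cdh5-positive barcodes was -0.53 (adjusted p = 1). Thrsp, which acts in lipid synthesis, fell by 4.31 in mural cells, from 648 and 315 on chow to 4.54 and 35.5 on high fat diet. In Cdh5-positive barcodes Thrsp was at 517 and 459 on chow against 137 and 114 on high fat diet, and its fall was larger in mural cells (difference -2.39, adjusted p = 0.0025). Retn, Cdo1, Adig and Rbp4 had 0 UMIs in the mural cells of both high fat libraries, which makes them at least 60.0-, 28.6-, 11.1- and 21.8-fold lower against a floor of 3 counts over the group. Scd1, a fatty acid desaturase, fell by 5.55. The source of these RNAs was not tested. The interferon-responsive gene Ifi27l2a was at 904 and 591 on chow against 86.2 and 66.6 on high fat diet (-3.05 ± 0.33, adjusted p = 5.9e-07). In Cdh5-positive barcodes Ifi27l2a was at 979 and 746 on chow against 237 and 227 on high fat diet. Of 10 tested interferon-stimulated genes it was the only one called.

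**Figure D4:**
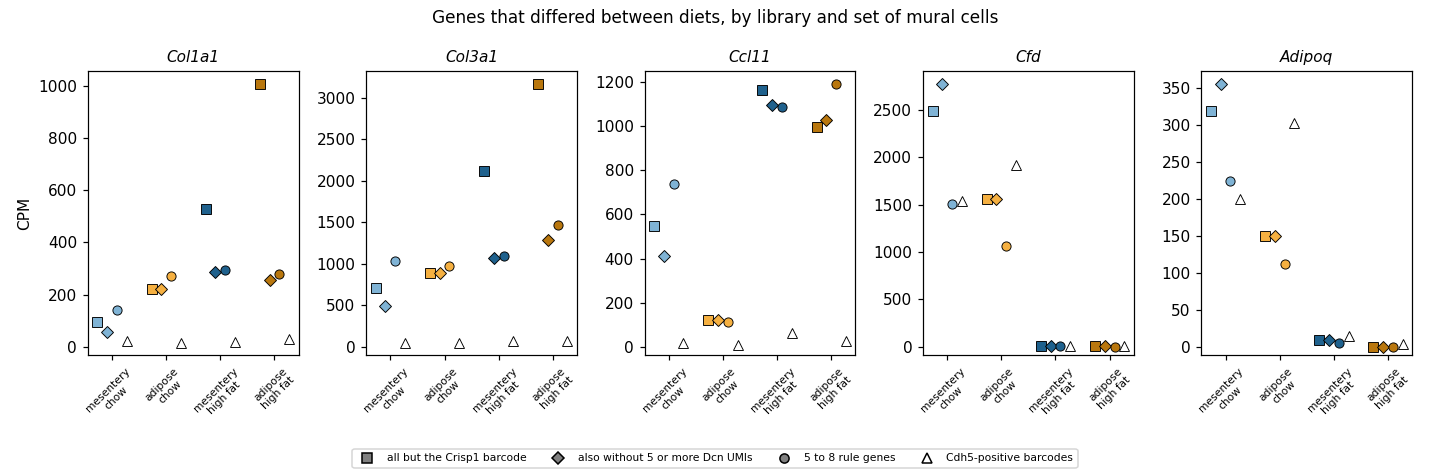
Levels in CPM of 5 genes that differed between diets, in the 4 run B libraries: squares are all mural cells but the Crisp1 barcode, diamonds also leave out cells with at least 5 Dcn UMIs, circles are cells with 5 to 8 rule genes and open triangles Cdh5-positive barcodes. High fat libraries lie above chow libraries for Ccl11 in all 3 sets of mural cells, the gap in Col1a1 and Col3a1 shrinks in the narrower sets, and Cfd and Adipoq are high on chow in every set.

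The contractile genes had lower levels on high fat diet that did not pass the test. Acta2 was at 4918 and 3774 on chow against 2395 and 2061 on high fat diet, Myh11 at 2428 and 1760 and then 998 and 990, and Tagln at 6822 and 3750 and then 2853 and 2785. In each of them both chow libraries were above both high fat libraries. The share of all genes split in this way was not counted. The log2 changes were -0.72 ± 0.26, -0.82 ± 0.27 and -0.6 ± 0.29, with adjusted p = 0.208, 0.145 and 0.46. A single cell held 67.0% of the Acta2 UMIs in adipose on chow and 53.4% in mesentery on high fat diet. Without the highest cell of each library Acta2 was at 4115 and 1329 on chow against 1233 and 1375 on high fat diet, so the groups overlapped. Myh11, at 1615 and 920 against 675 and 476, and Tagln, at 5411 and 2006 against 1704 and 1722, still did not. Of 16 tested contractile genes 0 were called and 14 had a negative change (median -0.58). Without the Crisp1 and Dcn barcodes Sncg and Mustn1 were called lower (-1.08 and -1.02).

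The remaining groups held few calls by diet. Of 26 mural genes outside the rule 1 was called, Postn (1.09, adjusted p = 0.0122). The guanylate cyclase subunit Gucy1a1 was at 1109 and 1371 on chow against 1130 and 777 on high fat diet (-0.15 ± 0.25), and the endothelin receptor gene Ednra at 261.5 and 221 on chow against 227 and 164 on high fat diet (-0.08 ± 0.34). Of 8 ion channel genes, 24 genes of PDGF, Notch, angiopoietin and TGF-beta signalling, 15 integrin and adhesion genes and 10 class I antigen presentation genes 0 were called. Of 33 oxidative phosphorylation genes 0 were called, with a median of -0.45. The respiratory chain genes Cox4i1 and Ndufa4 were called lower with the Crisp1 barcode, which held 475 and 185 of their UMIs, and not without it (adjusted p = 0.795 and 0.435). With the Dcn barcodes left out as well, Ndufa4 was called (-1.6, adjusted p = 0.000358). In lipid handling, 1 of 19 was called (Angptl4), and the scavenger receptor Cd36 was at 1268 and 1352 on chow against 1701 and 1528 on high fat diet (0.54 ± 0.25, adjusted p = 0.421).

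Between the tissues, 16 of 4054 genes (0.395%) were called, 9 higher (0.222%) and 7 lower (0.173%) in mesentery than in adipose. Without 1 library the count was 0 (either mesentery library), 13 (adipose chow) or 243 (adipose high fat), and it was 3 without the Crisp1 barcode, 0 without the Dcn barcodes and 21 without both. The sharpest was Nkx2-3, a homeobox transcription factor of visceral mesoderm and its vessels, on chromosome 19 (chr19:43612325-43615892, GRCm38). It was at 182 and 227 CPM in mesentery on chow and high fat diet and at 0 in both adipose libraries. It had a UMI in 13 of 44 and 19 of 41 mesentery cells and in 0 of 66 and 0 of 48 adipose cells, which allows shares of cells with a UMI of up to 4.55% and 6.25%, and at this depth sets no limit on the share of cells that express it. That is at least 30.2-fold higher in mesentery against a floor of 3 counts over the adipose cells (adjusted p = 4.05e-07). Cdh5-positive barcodes had it at 97.3 and 38.3 in mesentery and 0 in adipose, in 21.4% and 10.8% of the mesentery barcodes.

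Mgp, matrix Gla protein, which keeps vessel walls from calcifying, had the reverse order. It was at 165 and 268 CPM in mesentery on chow and high fat diet and at 2976 and 2807 in adipose (log2 difference -3.53 ± 0.28, adjusted p = 3.5e-09). It was seen in 4 of 44 and 6 of 41 mesentery cells and in 38 of 66 and 32 of 48 adipose cells. In Cdh5-positive barcodes Mgp was highest in mesentery on chow, at 2297, and at 490, 563 and 436 in mesentery high fat, adipose chow and adipose high fat. The tissue difference of mural cells minus that of Cdh5-positive barcodes was -4.55 (adjusted p = 1.82e-24), in a fit with infinite prior degrees of freedom. Without the Crisp1 and Dcn barcodes the level in adipose on high fat diet was 1410, and the tissue difference was -3.14 (adjusted p = 9.06e-15).

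Cxcl12, the chemokine that binds CXCR4, was at 279 and 141 in mesentery and 990 and 764 in adipose (-1.87 ± 0.31, adjusted p = 0.00129), with no overlap. It was among the 4 of 7 genes called lower in mesentery whose tissues did not overlap, and the share over all genes was not counted. In Cdh5-positive barcodes it was at 830 and 1261 in mesentery and 995 and 1662 in adipose, and the tissue difference was larger in mural cells (-1.5, adjusted p = 0.0446). Timp3, an inhibitor of metalloproteinases, was at 2450 and 2182 in mesentery and 1131 and 693 in adipose (1.63 ± 0.25, adjusted p = 0.000557). Peg3, an imprinted zinc finger gene, was at 210 and 644 in mesentery and 79.8 and 107 in adipose (2.23 ± 0.35, adjusted p = 0.000557). Timp3 and Peg3 were not called without the Crisp1 barcode alone (adjusted p = 0.297 and 0.106) and were without it and the Dcn barcodes (0.0155 and 2.49e-06). Also higher in mesentery were the actin-binding genes Pdlim3, Csrp1 and Actn1, and Rgs7bp, Syn3 and Stom, with log2 differences of 1.48 to 3.08.

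Nkx2-3 and Mgp were each called in 11 of 16 alternatives, with adjusted p of 1.17e-18 to 1 and 2.44e-30 to 0.975. The 11 include the alternative that repeats the main fit. Of the other genes lower in mesentery, Gpx3, Ramp1 and Sh3bgrl3 rested on the Crisp1 barcode. It held 789 of 793 Gpx3 UMIs and 128 of 137 Ramp1 UMIs in its library, and without it the Gpx3 difference was -0.36 (adjusted p = 0.999). Aldh1a1 and 1500011B03Rik were not tested without it. Tbx18, a transcription factor gene of pericytes and smooth muscle, was below the filter on low counts with the Crisp1 barcode kept. It was at 5.69 and 0 in mesentery and 70.4 and 75.5 in adipose, in 1 of 44 and 0 of 41 cells against 13 of 66 and 10 of 48. With that barcode left out it was not called (-4.54, adjusted p = 0.351), and with the Dcn barcodes left out too it was (-4.46 ± 0.99, adjusted p = 0.00364). Contractile genes gave 0 of 16 calls by tissue (Acta2 0.54 ± 0.26).

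**Figure D5:**
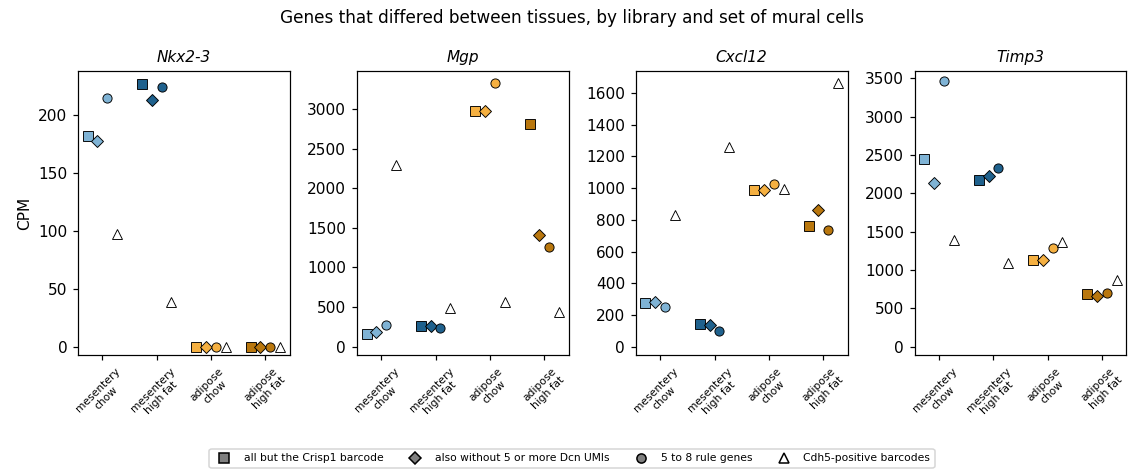
Levels in CPM of 4 genes that differed between tissues, in the 4 run B libraries, with the sets of mural cells and the Cdh5-positive barcodes marked as squares, diamonds, circles and open triangles. Nkx2-3 is at 0 in both adipose libraries, Mgp and Cxcl12 in mural cells are lower in mesentery than in adipose on both diets, and Timp3 is higher.

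Within a tissue, diet could be tested only with the 7 run A cells added, which gives 7 libraries, 5049 genes and 3 residual degrees of freedom. Mesentery on high fat diet then has 1 library, assumed to vary like the other groups, and without the run B mesentery library on chow 0 genes were called in mesentery. With all 7 libraries 12 genes (0.238%) were called in mesentery, 3 higher (0.0594%) and 9 lower (0.178%) on high fat diet, each with 0 UMIs in the run B library of the diet where it was lower. The neurotrophin gene Bdnf had 28 UMIs in 10 of 41 cells on high fat diet and 0 UMIs in 44 cells on chow. Svep1 and Fkbp10 were the other 2 higher genes, and 35 of the 38 Svep1 UMIs came from 1 cell. The smooth muscle genes Cnn1 (23 UMIs in 6 of 44 cells), Pln (33 in 4), Actg2 (16 in 4) and Rergl (12 in 3) were lower, with 0 UMIs in the 41 cells on high fat diet. Such a 0 allows shares of cells with a UMI of up to 7.32%. On chow the shares were 13.6% for Cnn1, 9.09% for Pln and Actg2 and 6.82% for Rergl. A single cell held 16 of the 33 Pln UMIs and 10 of the 16 Actg2 UMIs. The other 5 lower genes were Orm1, Dgat2, Rbp4, Apoc1 and Pck1, all known from adipocytes or liver. All 12 kept an adjusted p under 0.05 in the fit without the Crisp1 barcode, between 0.000814 and 0.0171.

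In adipose 179 genes (3.55%) were called, 37 higher (0.733%) and 142 lower (2.81%), but 33 (23 higher and 10 lower) without the Crisp1 barcode. Without either run B adipose library 0 were called. The rule for named genes left 3, whose direction in run A rests on 1 UMI against 0, so run A gives no replication. Col15a1, a basement membrane collagen, was higher on high fat diet (log2 change 4.08 ± 0.93, adjusted p = 0.000791), with 2 UMIs on chow and 27 on high fat diet in run B, 21 of the latter from 1 cell. Slc26a2, a sulfate transporter, and Chpf2 were lower, with 13 and 14 UMIs on chow and 0 on high fat diet in run B. Without the Crisp1 barcode Slc26a2 was not tested and Chpf2 was not called (adjusted p = 0.11). The change by diet differed between the tissues for 2 of 5049 genes (0.0396%), Hsd11b1 and Col8a1.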

How the data were processed

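Counts of UMIs per gene and barcode, deposited as 10x matrices, were used as the authors deposited them; the matrices came from software version 3.0.2 (run A) and Cell Ranger 5.0.0 (run B), per the file headers. The submitters' processing notes name mm10 and Seurat 4.3.0, with no step given. The 30406 gene identifiers shared by both runs were used. The cells, gene lists and tests were chosen with earlier results of these data known.

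Counts were summed over the mural cells of each library and tested with edgeR 4.0.16 (R 4.3.3, TMM scaling, quasi-likelihood test, Benjamini-Hochberg adjustment over all genes tested). Libraries with at least 10 mural cells entered, which left the 4 of run B. A model of the 4 groups then has no residual degrees of freedom, so tissue and diet were fitted as additive terms, a change from the planned design; changes within a tissue and their difference were fitted over all 7 libraries with a mural cell. Shares were compared by exact permutation over libraries. Named were the 8 rule genes, 12 followed genes, the 20 leading genes, up to 10 genes in each direction per comparison by smallest p, and up to 4 examples per list. For diet within a tissue, the genes also had to keep 1 direction in every run with cells on both diets. Genes named by diet over both tissues, or by tissue, came from run B alone, with no check of direction in run A. Other genes, such as Tbx18, were chosen after their values were seen. Cells with high Scrublet scores (scanpy 1.11.5) were kept and left out in an alternative. DESeq2 1.42.0 was another. The labels pair the samples by run, as repeats of 1 experiment. Counts were also simulated per library, with the same spread for every gene. On these the diet fit recovered 53 of 173 genes changed 4-fold (30.6%) with 2 false calls among 4185 genes. The simulation had no single cells that hold much of a gene's UMIs, as the data do, so it gives no error rate for the calls above.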

Additional observations from a re-analysis of the deposited data

Results flagged for a closer look

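The change by diet differed between mesentery and adipose for 2 genes by edgeR's quasi-likelihood test of that difference. Mesentery on high fat diet has 1 library in this fit, assumed to vary like the other groups, and both genes have 0 UMIs in run A, so each value compares single run B libraries and has no replicate check. For Hsd11b1, an enzyme that regenerates active glucocorticoid, the log2 change in mesentery minus that in adipose was -9.4 ± 1.76 (adjusted p = 0.000456). It had 12 and 2 UMIs in mesentery on chow and high fat diet and 0 and 21 in adipose, in 6 mural cells, and the 21 came from 1 cell. It was called in 7 of 9 alternatives. For Col8a1, a collagen of vessel walls, the difference was -6.12 ± 1.39 (adjusted p = 0.0268), with 12, 2, 2 and 17 UMIs in mesentery chow, mesentery high fat, adipose chow and adipose high fat, in 15 cells. It was called in 3 of 9 alternatives, and not with the replicate block (adjusted p = 0.178).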

How the results depend on the processing

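Counts of called genes moved with the processing, as did the prior degrees of freedom, and no cause of this was tested. By diet (110 called) DESeq2 gave 13, no filter on low counts 291, at least 4 rule genes 2, leaving out cells with Pecam1, Pdgfra, Adipoq or Cd68 21, leaving out the Dcn barcodes 5, the Crisp1 barcode 32, both 59, at least 5 rule genes 38, all 7 libraries 46, the replicate block 52, and leaving out 1 library 0 to 388. By tissue (16) these were DESeq2 2, no filter 167, at least 4 rule genes 0, high Scrublet scores left out 42, no Dcn barcodes 0, no Crisp1 barcode 3, all 7 libraries 3, the replicate block 6, and 1 library left out 0 to 243. Within mesentery (12) no Crisp1 barcode gave 25, at least 4 rule genes 0, the marker exclusion 5, Scrublet 27, DESeq2 0 and 1 library left out 0 to 13, with 14 under the replicate block. Within adipose (179) the same settings gave 33, 109, 95, 199 and 2, no filter 291, 1 library left out 0 to 188, and the replicate block 186. For the difference between tissues (2) the replicate block gave 7, no Crisp1 barcode 5, the marker exclusion 0, Scrublet 10, DESeq2 0 and 1 library left out 0 to 1. At unadjusted p under 0.05 the edgeR fits held 441 (diet) and 315 (tissue) of 4054 genes. Of 5049 genes they held 178 (diet in mesentery), 375 (diet in adipose) and 180 (difference between tissues). The 178 and the 180 are a smaller part of the genes tested than 0.05. The difference in share by diet ran from -0.164 to 0.293 points with 1 library left out, reversed without mesentery chow A (-0.0740), adipose chow A (-0.0645), mesentery high fat B or adipose high fat B (-0.0697). By tissue it reversed with at least 4 (0.0116) or 5 (0.0205) rule genes, and ran from -0.312 to 0.144 with 1 library left out; with the replicate block the exact permutation p was 1 by diet and 0.625 by tissue. For the single genes named by diet, 268 values kept their direction and side of the threshold, 71 no longer passed and 10 turned direction; by tissue these were 220, 92 and 9, and with 1 library left out 71, 42 and 11 (diet, with 3 newly passing) and 57, 46 and 9 (tissue). All that turned were uncalled genes, and none passed in its turned direction. The 268 and 220 include the limit of at least 5 mural cells per library, which keeps the same 4 libraries and repeats the main fit. By diet, turned log2 values were Cspg4 0.36 and Ednra 0.2 (marker exclusion), Cspg4 0.07, Ednra 0.0 and Angpt1 0.02 (no Dcn barcodes), Cspg4 0.23, Ednra 0.27, Gucy1a1 0.29 and Vtn -0.14 (all 7 libraries) and Fabp4 -0.05 (no Crisp1 barcode). By tissue they were Acta2 -0.18 and Myh11 -0.07 (5 rule genes), Col4a1 0.06 (4 rule genes), Cspg4 0.0 and Col4a1 0.18 (marker exclusion), Col4a1 0.01 (no Dcn barcodes), Col4a1 0.31 and Fabp4 0.16 (all 7 libraries) and Col4a1 0.0 (replicate block). With 1 library left out the diet ranges were Tagln -1.31 to 0.1, Cspg4 -0.21 to 0.08, Mcam -0.24 to 0.68, Ednra -0.46 to 0.33, Gucy1a1 -0.39 to 0.08, Angpt1 -1.91 to 0.56 and Fabp4 -0.07 to 0.43, and the tissue ranges Acta2 -0.03 to 1.08, Myh11 -0.21 to 1.15, Vtn -0.55 to 0.1, Col4a1 -0.78 to 0.64, Angpt1 -1.9 to 0.62, Cd36 -0.1 to 0.64 and Fabp4 -0.42 to 0.17. At least 5 rule genes could not be fitted within a tissue. Alternatives on the Dcn and Crisp1 barcodes, on 5 rule genes on all 7 libraries and on thinned shares within pairs were chosen after seeing the data. The summed mural cells held 175893 to 344559 UMIs per run B library, which with 4 libraries limits what could be called.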
